A study of Mus musculus with 16 samples.

Results

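The 41 genes described here form the aminoacyl-tRNA synthetase and ATF4 amino acid module. They were taken from a list of gene names, chosen with earlier results of these data known: 20 subunits of the cytosolic synthetases, 6 regulators and effectors of the amino acid stress response (Atf4, Atf5, Trib3, Chac1, Ddit3 and Sesn2), 9 enzymes of serine, asparagine and one-carbon metabolism, and 6 amino acid transporters. All 41 listed genes were among the 13652 genes counted in each library, matched through their Entrez identifiers, with Mars listed as Mars1 in the reference. The low-count filter removed 0 genes, so all 41 were tested in every comparison. In the mm10 annotation the genes the results turn on most lie at chr19:15905123-15925059 (Psat1), chr15:80255184-80257545 (Atf4), chr4:129189734-129219240 (Yars), chr7:16781334-16798274 (Slc1a5), chr7:143557230-143600090 (Cars) and chr3:50364936-50499087 (Slc7a11).

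The cells were AML246, mouse acute myeloid leukemia cells grown in IMDM with 10% FCS and IL-3, in a series on restoring and then knocking down the myeloid transcription factor PU.1, the product of Spi1. Doxycycline (Dox) at 0.1 ug/mL was added at day 0 and taken away at day 12 of a 24-day course. The 8 groups were untreated cells at day 0, cells after 4, 8 or 12 days on Dox, and cells 4, 8 or 12 days off Dox after those 12 days on it, all sorted as total viable cells, together with a Cd11b-high viable sort at day 12. Each group held 2 libraries, replicates A and B. All groups derive from 1 leukemia, and the labels state no further genotype, driver of the Dox-controlled element or host. No label says whether A and B were separate cultures, so the p-values measure the spread between these libraries, which may be technical.

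Aminoacyl-tRNA synthetases join each amino acid to its tRNA and so supply the ribosome. When uncharged tRNA or another stress leads to phosphorylation of the initiation factor eIF2, general translation falls while ATF4, a basic leucine zipper factor, is translated from its mRNA more efficiently. ATF4 then activates genes for amino acid synthesis, amino acid import and tRNA charging, and in leukemia cells, which divide rapidly, these genes support protein and nucleotide synthesis. Because much of the control of ATF4 lies in translation, its mRNA level does not measure its protein.

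ATF4 binds with C/EBP partners at a composite element, searched here as TTNCATCA on both strands (the other strand reads TGATGNAA). RefSeq promoter windows on GRCm38 were found for 32 of the 41 members, and in the 250 bases before the start site 6 of those 32 genes held the element (18.8%, 95% Wilson interval 8.89% to 35.3%, counting error only), against 256 of 10257 genes of the count files with a window (2.50%). The 6 were Aars, Asns, Chac1, Gars, Slc7a11 and Tars. The windows of Aars and Slc7a11 belong to start sites inside the annotated span of the gene, not at its outer end. With the 50 bases after the start site included, 9 of 32 members (28.1%) held it, against 2.87% of the genes of the count files. The E-box CACGTG was found in 3 of 32 members (9.38%) and in 9.65% of the genes of the count files over the same 250 bases. A match describes the letters of a window and is not evidence of binding. The 4 stretches below, 1 from each role where a match was found, are given 5′ to 3′ on the strand of the gene, with the element in capitals: Asns on chr6:7693210-7693309 (minus strand, 23 bases before the start site), Chac1 on chr2:119351003-119351102 (plus strand, 193 bases before it), Slc7a11 on chr3:50443626-50443725 (minus strand, a match in each orientation, 66 and 47 bases before it) and Tars on chr15:11399659-11399758 (minus strand, 15 bases before it).
Asns: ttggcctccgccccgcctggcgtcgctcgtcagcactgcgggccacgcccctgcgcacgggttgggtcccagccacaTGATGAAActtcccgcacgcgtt
Chac1: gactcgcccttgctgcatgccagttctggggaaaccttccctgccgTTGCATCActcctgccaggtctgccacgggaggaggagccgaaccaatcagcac
Slc7a11: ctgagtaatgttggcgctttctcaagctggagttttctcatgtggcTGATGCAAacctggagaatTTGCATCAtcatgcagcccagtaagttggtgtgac
Tars: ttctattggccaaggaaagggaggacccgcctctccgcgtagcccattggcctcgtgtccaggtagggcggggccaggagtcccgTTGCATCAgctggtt

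Library totals ran from 12962801 to 26509803 counts, and the lowest count of any member in a library was 12, for Chac1. Spi1 stood at 61.5 ± 6.7 CPM (SD, n = 2) at day 0, 222 ± 4.7 at day 12 and 46 ± 12 at 12 days off, so the labels matched the level of the restored gene. Itgam, which encodes CD11b, went from 1.59 ± 0.25 CPM at day 0 to 694 ± 35 at day 12 and 912 ± 40 in the Cd11b-high sort. Levels are given as CPM, the count of a gene scaled to the library total after TMM normalization. Of the 12 leukemia and myeloid identity markers, 8 were higher and 1 lower at day 12 than at day 0. Among these 12, Ptprc (CD45) was near 0 at day 0, at 0.163 and 0.148 CPM, and at 68.1 and 65.4 CPM at day 12. Markers of other myeloid types moved with the groups. The summed level of 9 neutrophil genes went from 36 and 45 CPM at day 0 to 2915 and 2290 at day 4 and 769 and 754 at day 12. That of 8 eosinophil genes was 5175 and 2077 CPM at day 0, 211 and 251 at day 4, 8275 and 9215 at day 12, and 4205 and 4286 at 12 days off. Against day 0, 2 of these 8 were higher and 4 lower at day 4, and 7 higher and 0 lower at day 12. At 12 days off 2 were higher and 4 lower. The sum of 5 basophil and mast cell genes was 2612 and 2119 CPM at day 0, 467 and 517 at day 4 (5 of 5 lower), 1733 and 1745 at day 12, and 2569 and 2005 at 12 days off. Against day 0, 2 of these 5 were higher and 2 lower at day 12, and likewise 2 and 2 at 12 days off. The sum of 5 macrophage genes was 147 and 155 CPM at day 0, 1273 and 1096 at day 4, 428 and 395 at day 12, and 80.2 and 64.7 at 12 days off. Against day 0, 3 of these 5 were higher and 1 lower at day 4 and again at day 12. At 12 days off 1 was higher and 4 lower. The sum of 10 mitosis genes was 2235 and 2153 CPM at day 0, 2283 and 2595 at day 4, 3223 and 3249 at day 12, and 2102 and 2013 at 12 days off. Of these 10, 4 were higher and 0 lower at day 12 than at day 0, with a median log2 change of 0.07. At 12 days off 2 were higher and 3 lower than at day 0, with a median of 0.14. Of all genes, 28.2% were higher and 31.0% lower at day 4 than at day 0. The shares were 30.0% and 33.4% at day 12, and 21.6% and 22.0% at 12 days off. Mitochondrial transcripts made up 7.36% (A) and 6.35% (B) of the day 0 counts and 2.01% to 3.59% elsewhere. The part of these shifts in the results on the module was not tested, and in these bulk samples fewer cells of a type and less RNA per cell cannot be told apart. Replicates A and B of the 12 days off group stood further apart than those of any other group: the chi-square statistic per degree of freedom over all genes was 69.8, against 2.87 to 18.2.

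The module was lowest after 4 days on Dox, and by 8 days off its summed level lay between the 2 day 0 libraries. The summed level of the 41 genes was 7773 and 8463 CPM at day 0 (replicates A and B), 4031 and 4425 at day 4, 4679.96 and 5128 at day 8, and 5618 and 5690.08 at day 12. Off Dox it was 6390.37 and 6652 CPM after 4 days, 8316 and 8344 after 8 days, and 8921 and 8182 after 12 days. The 12 days off libraries thus lay on either side of the higher day 0 library. By mean level, 31 of the 41 genes were lowest at day 4 and 7 at day 8, and 20 were highest at 12 days off, 11 at day 0 and 9 at 8 days off. The one gene with its highest mean in the Cd11b-high sort, and the only one with its lowest mean at 12 days off, was the cystine transporter gene Slc7a11.

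**Figure D1:**
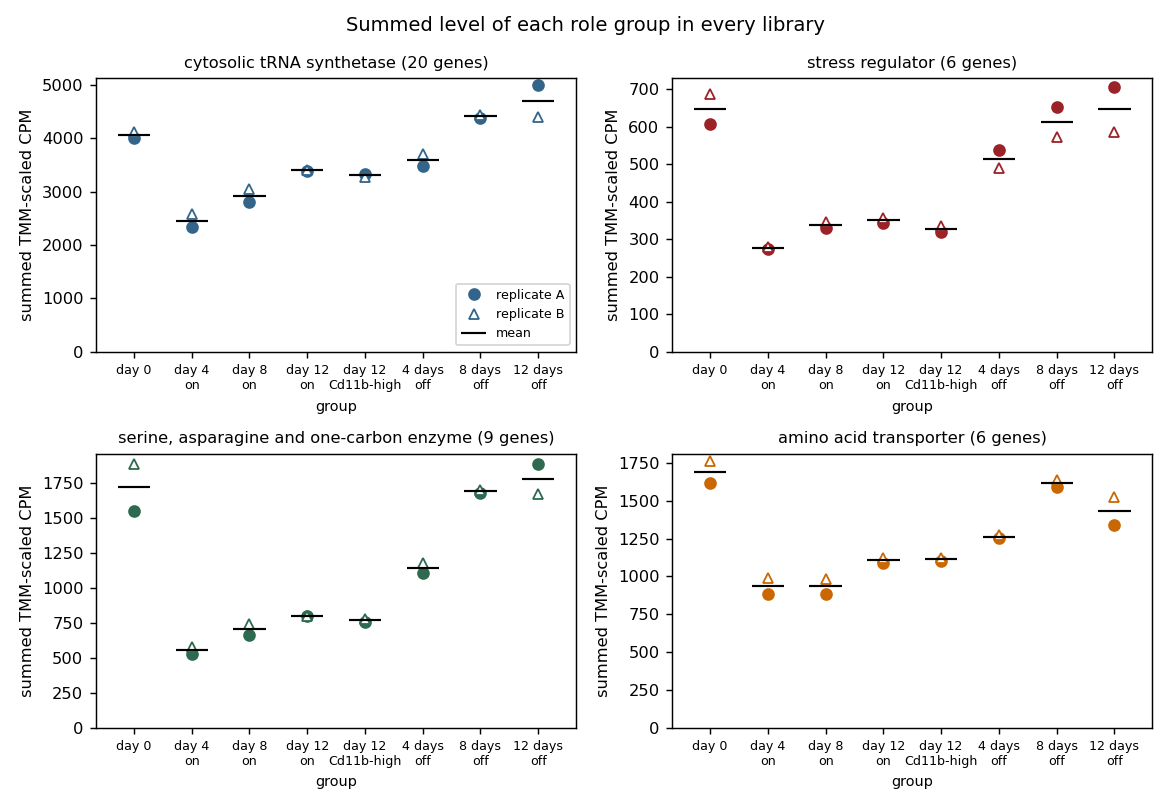
Summed TMM-scaled CPM of each of the 4 roles in every library (filled circles for replicate A, open triangles for B) along the course, with black bars for the group means. The synthetase, stress and enzyme sums have both of their lowest points at day 4, the transporter sums are alike at days 4 and 8 (884 to 993 CPM), and the synthetase sum at 12 days off, 4991 and 4396 CPM, lies above the 2 day 0 points.

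Per kilobase of the deposited gene length, the mean level over the 16 libraries placed Atf4 first among the members (181 CPM per kb), followed by the aspartyl-tRNA synthetase gene Dars (180), the glutamine transporter gene Slc1a5 (155), the mitochondrial serine hydroxymethyltransferase gene Shmt2 (134) and the phosphoserine aminotransferase gene Psat1 (123). The lowest were Chac1 (1.81), Slc7a11 (3.76) and Trib3 (6.82). The ratio of a gene's highest to its lowest group mean ran from 1.31 for the glutamine and neutral amino acid carrier gene Slc38a2 to 9.49 for Trib3.

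**Figure D2:**
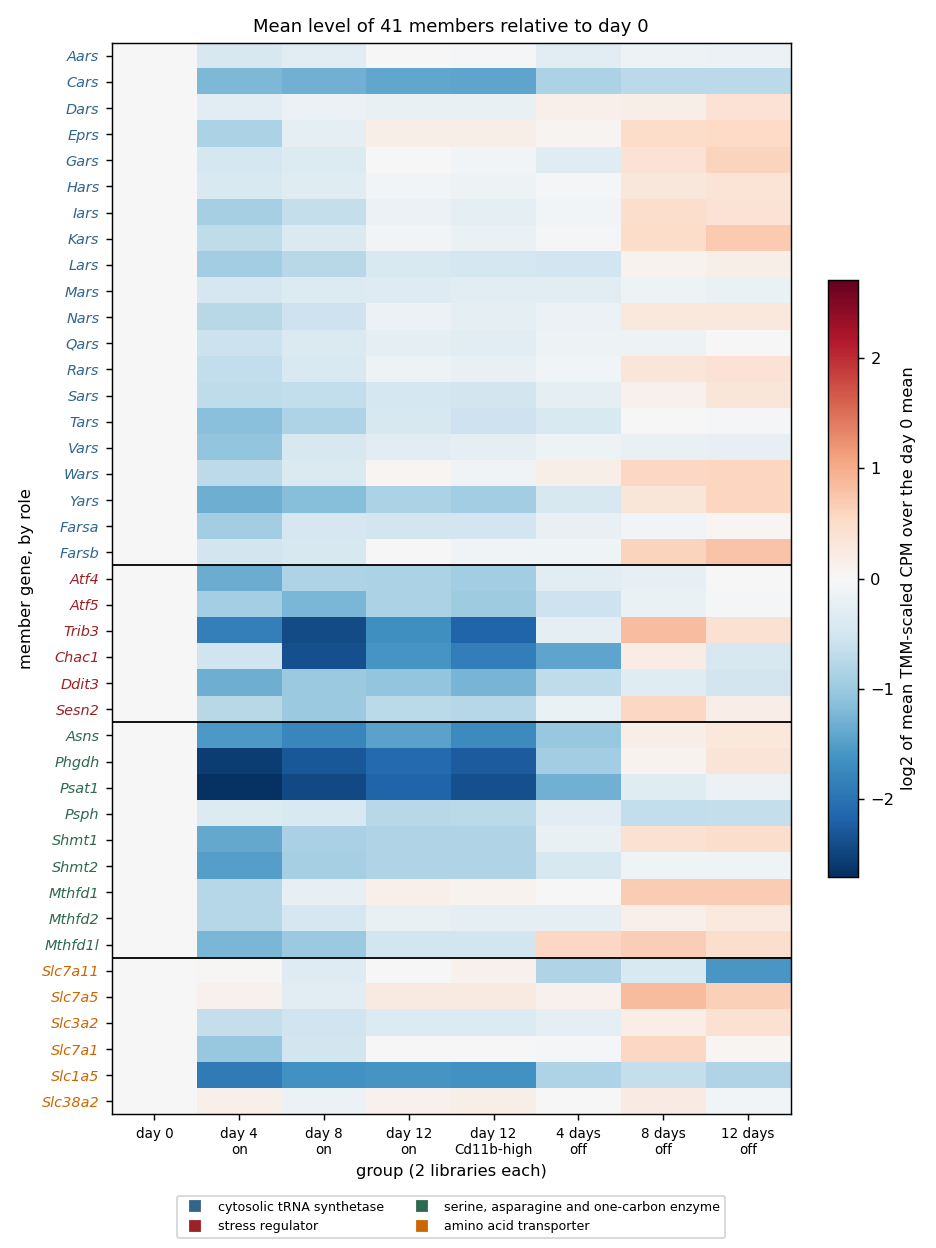
Each row is a member, grouped by role, and each column a group, with colour giving the log2 ratio of the group's mean CPM to the day 0 mean (blue lower, red higher). In the day 4 column 36 of 41 genes were called lower, with Psat1 and Phgdh at the lowest values, while Slc7a11, Slc7a5 and Slc38a2 stay near 0 there.

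Within 4 days on Dox, 36 of 41 members fell and 0 rose (edgeR quasi-likelihood test, Benjamini-Hochberg adjusted p under 0.05), where 31.0% of all genes tested fell and 28.2% rose. The median log2 change was -0.78 over the members and -0.05 over all genes. In 38 of 41 members both day 4 libraries lay below both day 0 libraries. The share of all genes with such a separation was not computed, so this count has nothing to be read against.

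Of the synthetases, 19 of 20 fell, with a median log2 change of -0.70. The largest drop was that of Yars, the tyrosyl-tRNA synthetase gene, from 169 and 166 CPM at day 0 to 62.8 and 71.6 at day 4. Its log2 change was -1.32 (SE 0.12, edgeR adjusted p = 4.0e-07). Cars, for cysteine, went from 158 and 159 CPM to 69.3 and 68.4 (log2 change -1.20, SE 0.12). Tars, for threonine, went from 156 and 159 CPM to 66.4 and 78.3 (log2 change -1.12, SE 0.12). Vars, for valine, one of the most abundant, went from 615 and 565 CPM to 272 and 296 (log2 change -1.06, SE 0.11). For each of these 4 genes the day 4 pair lay far below the day 0 pair, with no overlap. Dars was the exception: 393 and 516 CPM at day 0 and 385 and 363 at day 4, a log2 change of -0.28 (SE 0.12, edgeR adjusted p = 0.058). Without replicate A of day 0 the Dars change was -0.46 and passed the test (edgeR adjusted p = 0.0056).

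Of the stress-response genes, 5 of 6 fell. Atf4 stood at 408 and 468 CPM at day 0 and 177 and 169 at day 4, a log2 change of -1.34 (SE 0.11, edgeR adjusted p = 1.3e-07). Trib3, a pseudokinase gene that is a target of ATF4 and restrains its activity, went from 17.99 and 19.8 CPM to 5.38 and 5.12 (log2 change -1.84, SE 0.27). Ddit3, which encodes CHOP, went from 50.7 and 48.2 CPM to 19.97 and 19.4 (log2 change -1.33, SE 0.23). Its annotation overlaps that of Mars1 by 71 bases and that of Mbd6 by 77, and the sources used here do not say whether the counting used strand. Atf5, a related factor also controlled by translation, had a log2 change of -0.92 (SE 0.15), and Sesn2, the leucine-sensing sestrin, one of -0.74 (SE 0.14). Chac1, which encodes a glutathione-degrading enzyme, was rare, at 4.02 and 5.53 CPM at day 0 and 3.03 and 3.51 at day 4, and its log2 change of -0.53 (SE 0.24) did not pass (edgeR adjusted p = 0.068), though it did without replicate A of day 0 (-0.76, edgeR adjusted p = 0.037).

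All 9 metabolic enzymes fell, the largest changes being those of the first enzymes of serine synthesis. Phgdh, the first enzyme of serine synthesis from glycolysis, went from 70.3 and 85.9 CPM at day 0 to 12.8 and 13.6 at day 4, and Psat1, the next enzyme, from 557 and 713 CPM to 100.3 and 99.3. These are log2 changes of -2.57 (SE 0.17) for Phgdh and -2.67 (SE 0.12, edgeR adjusted p = 2.8e-10) for Psat1, and in both genes the lower day 0 library was several times the higher day 4 library. Psph, the last step of the pathway, did not share that size of change: it went from 64.0 and 91.1 CPM to 62.8 and 56.7 (log2 change -0.37, SE 0.14, edgeR adjusted p = 0.036), and it lost the call under several alternatives, at -0.10 without replicate B of day 0. Asns, asparagine synthetase, went from 76.8 and 123 CPM to 31.2 and 37.3 (log2 change -1.54, SE 0.18). Its 2 day 0 libraries differed more from each other than those of most members. Shmt2 went from 414 and 467 CPM to 151 and 162 (log2 change -1.50, SE 0.12), and its cytosolic counterpart Shmt1 from 89.8 and 104 CPM to 35.2 and 39.0 (log2 change -1.39, SE 0.12). The mitochondrial folate enzyme gene Mthfd1l had a log2 change of -1.23 (SE 0.14) and the cytosolic Mthfd1 one of -0.78 (SE 0.15).

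Of the transporters 3 of 6 fell. Slc1a5, the ASCT2 glutamine carrier, had the largest drop, from 843 and 860 CPM at day 0 to 243 and 213 at day 4 (log2 change -1.90, SE 0.12, edgeR adjusted p = 5.6e-09). Slc7a1, the cationic amino acid carrier CAT1, went from 135 and 164 CPM to 65.7 and 81.1 (log2 change -1.02, SE 0.20). Slc3a2, the CD98 heavy chain, also fell. The other 3 did not pass, and their groups overlapped: the xCT gene Slc7a11 stood at 36.2 and 48.6 CPM at day 0 and 38.2 and 48.5 at day 4, the LAT1 gene Slc7a5 at 94.7 and 125 and then 106 and 131, and the SNAT2 gene Slc38a2 at 272 and 301 and then 287 and 339. Slc7a11 and Slc7a5 encode light chains that pair with the CD98 heavy chain.

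**Figure D3:**
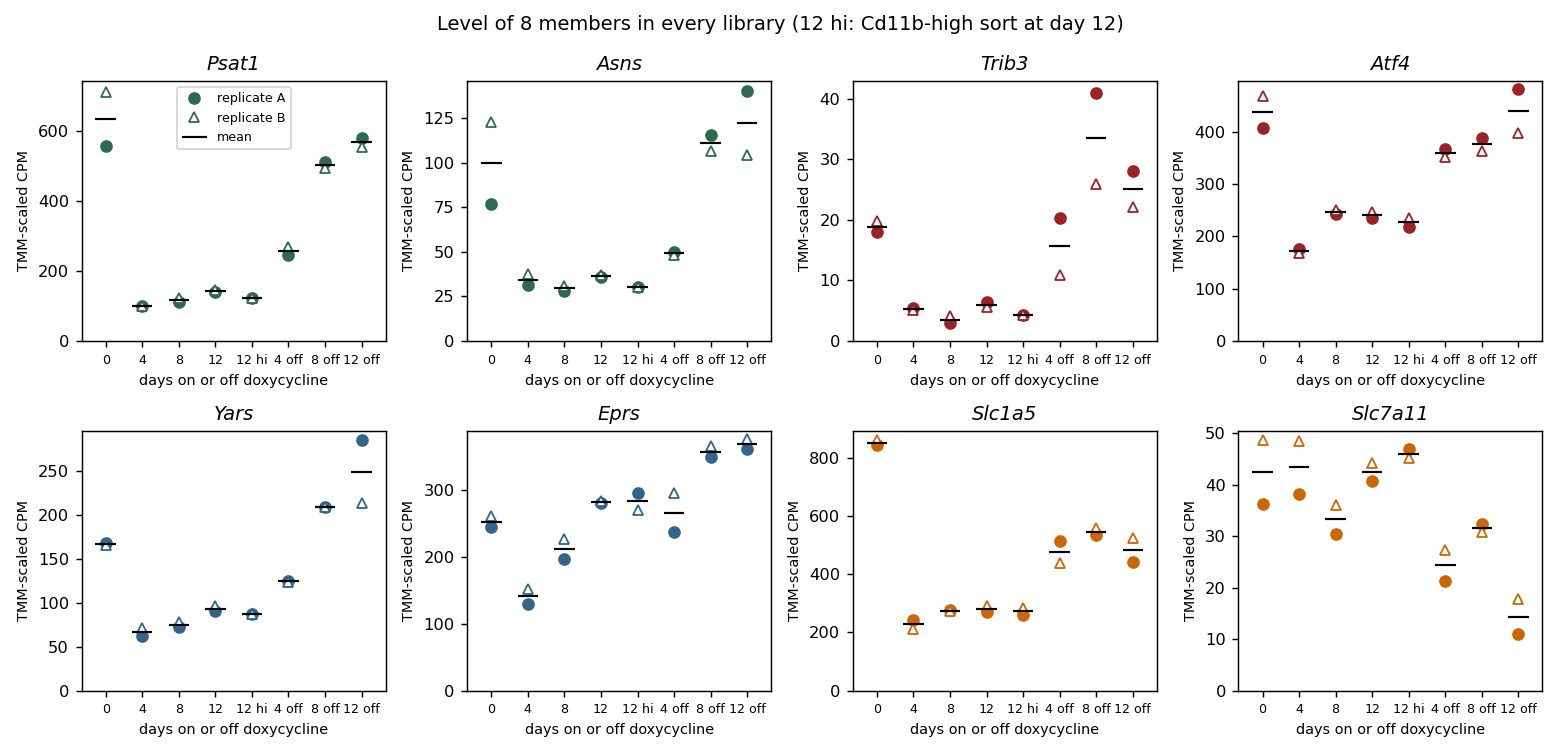
TMM-scaled CPM (linear axes from 0) of 8 members from all 4 roles in every library, filled circles for replicate A, open triangles for B and black bars for the group means. The day 4 points of Psat1, at 100.3 and 99.3 CPM, lie below all others of that gene, and the 12 days off points of Slc7a11, at 10.9 and 17.8 CPM, lie below its other points.

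At day 8 the counts were 34 of 41 members lower and 0 higher than at day 0, where 30.2% of all genes fell and 27.0% rose, and the median log2 change was -0.53. Without replicate A of day 8 fewer members, and fewer of all genes, were called lower. The median log2 changes were then -0.45 over the members and -0.06 over all genes. The summed stress genes stood at 331 and 346 CPM, above their 275 and 280 at day 4, a sum to which Atf4 adds most. By mean level only Atf4 and Ddit3 of these genes were lowest at day 4. Atf5 (31.1 CPM), Sesn2 (31.8 CPM), Trib3 and Chac1 had their lowest means at day 8. Trib3 stood at 2.91 and 4.15 CPM (log2 change -2.41, SE 0.30) and Chac1 at 0.811 and 1.02 CPM (log2 change -2.36, SE 0.31, edgeR adjusted p = 1.3e-05). Both Chac1 libraries of day 8 lay below all day 0 and day 4 libraries, on 12 and 16 counts.

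From day 4 to day 12, still on Dox, 25 of 41 members rose and 1 fell, where 14.7% of all genes rose and 12.3% fell; the median log2 change was 0.47 over the members and -0.01 over all genes. Fewer members, and fewer of all genes, were called higher without replicate A of day 4. The median log2 changes in that fit were 0.36 over the members and -0.01 over all genes. Among the synthetases 16 of 20 rose, and fewer were called without that library. Eprs, the bifunctional glutamyl-prolyl synthetase gene, went from 129.5 and 153 CPM to 282 and 284 (log2 change 1.0, SE 0.12, edgeR adjusted p = 4.4e-05). Wars (0.77, SE 0.14), Vars (0.75, SE 0.11) and Iars (0.74, SE 0.15) came next on the log2 scale. Among the enzymes 7 of 9 rose, with Mthfd1 at 0.91 (SE 0.15) and Shmt2 at 0.68 (SE 0.12). Slc7a1 was the 1 of 6 transporters that rose, from 65.7 and 81.1 CPM to 148 and 149 (log2 change 1.02, SE 0.20). That share is near the 14.7% of all genes. Of the 6 stress genes Atf4 rose and Chac1 fell (log2 change -1.05, SE 0.26), 1 each way and near the shares of all genes. Chac1 was not called without replicate A or B of day 12 (edgeR adjusted p = 0.063 and 0.059).

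After 12 days on Dox, 24 of 41 members were lower than at day 0 and 0 higher, where 33.4% of all genes fell and 30.0% rose, and the median log2 change was -0.38 over the members and -0.07 over all genes. All 6 stress genes and 7 of 9 enzymes were lower, as were 9 of 20 synthetases and 2 of 6 transporters. The 9 of 20, with a median log2 change of -0.18 over the synthetases, and the 2 of 6 are near the 33.4% of all genes. The difference between the roles was not tested. A test on simulated counts recovered 43.3% of 1.5-fold changes and 89.6% of 2-fold changes, so that a gene that did not pass may still differ by a smaller amount. The simulation gave every gene the same spread, and its 159 calls were far fewer than the calls in the data. Its rates may therefore not hold for this comparison.

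Psat1 and Phgdh remained the lowest against day 0, Psat1 at 140.2 and 145 CPM (log2 change -2.15, SE 0.12, edgeR adjusted p = 2.1e-09) and Phgdh at 18.9 and 17.7 CPM (-2.09, SE 0.16). Asns stood at 35.9 and 37.0 CPM (log2 change -1.45, SE 0.18). Shmt1 and Shmt2 were lower by similar amounts, with log2 changes of -0.82 (SE 0.12) and -0.81 (SE 0.12). Mthfd1 stood at 65.1 and 66.4 CPM, above its 62.8 and 57.6 at day 0, and did not pass the test.

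Trib3 stood at 6.43 and 5.55 CPM at day 12 (log2 change -1.66, SE 0.27) and Chac1 at 1.55 and 1.60 CPM (-1.58, SE 0.26). Atf4 stood at 236 and 246 CPM, with a log2 change of -0.86 (SE 0.11, edgeR adjusted p = 8.6e-06), and Atf5 (-0.86, SE 0.15), Ddit3 (-1.06, SE 0.22) and Sesn2 (-0.73, SE 0.14) were also lower than at day 0.

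Cars, at 69.3 and 68.4 CPM at day 4, was the synthetase furthest below its start at day 12. It stood at 58.5 and 62.1 CPM then, with a log2 change against day 0 of -1.39 (SE 0.12, edgeR adjusted p = 1.5e-07). Yars was the next lowest, at 90.5 and 95.9 CPM (log2 change -0.85, SE 0.12), followed by Farsa, a subunit of the phenylalanyl synthetase (-0.49, SE 0.10), and Sars, for serine (-0.47, SE 0.14, not called without replicate B of day 0). The second phenylalanyl subunit gene, Farsb, stood at 60.5 and 58.6 CPM against 58.1 and 60.8 at day 0, with overlapping pairs. Eprs, at 282 and 284 CPM, lay above its day 0 pair of 245 and 262, a log2 difference of 0.16 (SE 0.12, edgeR adjusted p = 0.26), which passed when the 4 libraries were fitted alone (0.21, edgeR adjusted p = 0.024). Slc1a5 stood at 271 and 291 CPM, with a log2 change of -1.60 (SE 0.12).

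**Figure D4:**
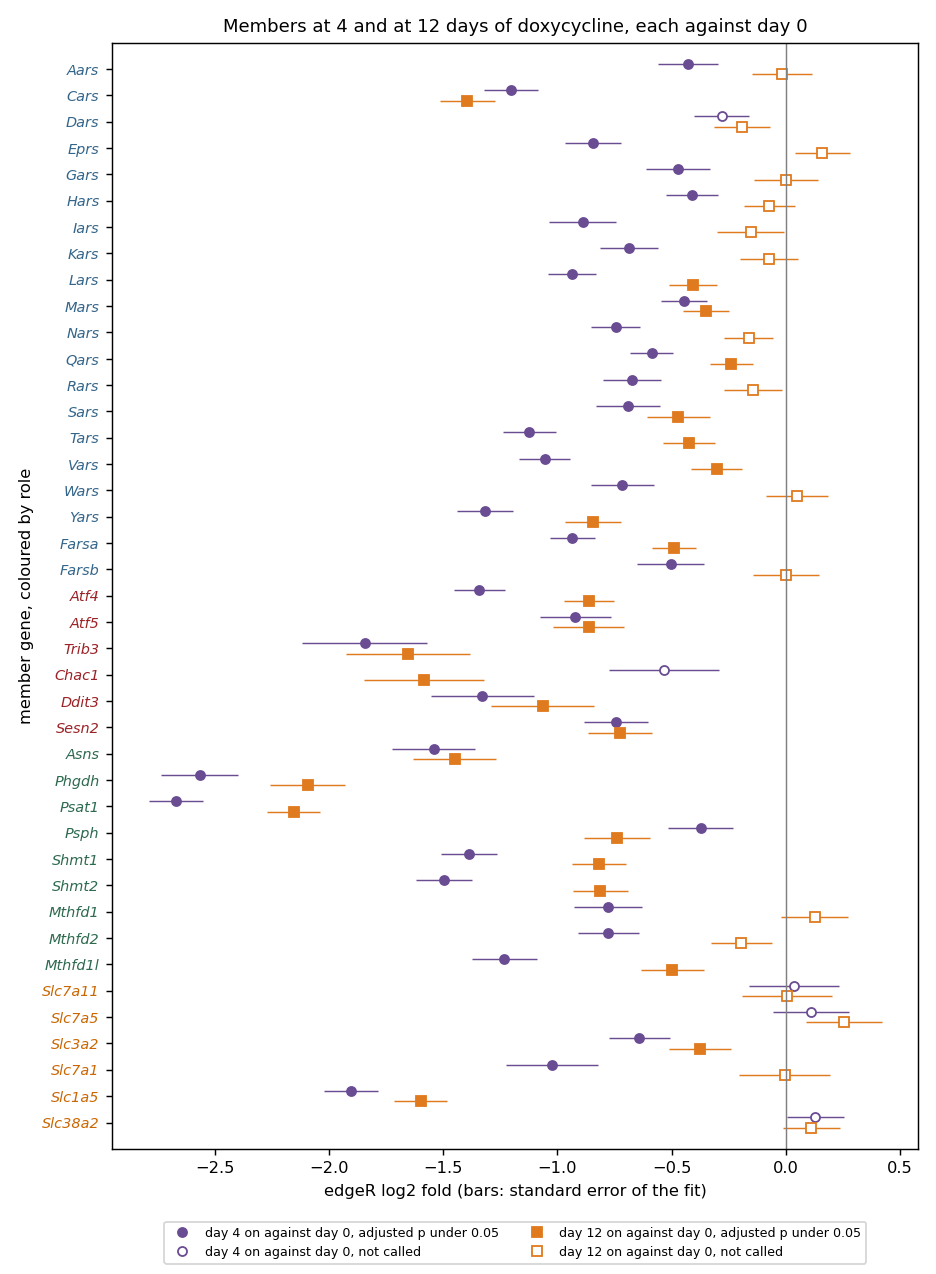
Log2 change of each member against day 0 after 4 and 12 days on Dox, with bars for the standard error of the edgeR fit and filled points where the adjusted p was under 0.05. Most synthetases moved towards 0 between the 2 times, while Cars, Psat1, Phgdh, Asns, Trib3, Chac1, Ddit3 and Slc1a5 were below -1 at day 12.

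In the Cd11b-high sort 0 of the 41 genes were called in either direction by edgeR against all viable cells of day 12, and 0 reached an unadjusted p under 0.05. Over all genes the test called 0.0146% (2 genes, both lower), with 309 at an unadjusted p under 0.05, and DESeq2 called 15 genes and 0 members. The summed level of the module was 5512 and 5519.98 CPM in the sort against 5618 and 5690.08 in all viable cells. Asns stood at 30.1 and 30.1 CPM in the sort and 35.9 and 37.0 in all viable cells (log2 difference -0.28, SE 0.18), and Psat1 at 123 and 123 CPM against 140.2 and 145 (-0.21, SE 0.11). In both the pairs did not overlap, and both were called lower when the 4 libraries were fitted alone (edgeR adjusted p = 0.033 and 0.023). The test does not show that the sorted and total cells have equal levels.

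At 4 days off Dox, 14 of 41 members were higher than at day 12 and 1 was lower, where 18.0% of all genes rose and 18.8% fell. Fewer members, and fewer of all genes, were called higher without replicate A or B of day 12 or replicate A of 4 days off. In those fits, in that order, the members' median log2 change was 0.11, 0.13 and 0.18. That of all genes was 0.03, 0.04 and 0.03. By role the 14 were 3 of 6 stress genes, 6 of 9 enzymes, 4 of 20 synthetases and 1 of 6 transporters. The 4 of 20 and the 1 of 6 are near the 18.0% of all genes. Trib3 went from 6.43 and 5.55 CPM to 20.3 and 10.9 (log2 change 1.39, SE 0.27, edgeR adjusted p = 0.0013). Phgdh went from 18.9 and 17.7 CPM to 36.9 and 44.6 (1.15, SE 0.16), and Psat1 from 140.2 and 145 to 246 and 268 (0.85, SE 0.11). Mthfd1l went from 81.9 and 80.5 CPM to 186 and 153 (1.06, SE 0.14). Atf4 went from 236 and 246 CPM to 367 and 351 (0.58, SE 0.11, edgeR adjusted p = 0.0010), and Slc1a5 from 271 and 291 to 512 and 439 (0.76, SE 0.11). Cars rose by 0.53 (SE 0.12) on the log2 scale and Yars by 0.42 (SE 0.12), the latter not called without either day 12 library or replicate A of 4 days off. Slc7a11 was the 1 member that fell, from 40.7 and 44.2 CPM to 21.2 and 27.4 (log2 change -0.81, SE 0.20), and it was not called without replicate A of 4 days off (edgeR adjusted p = 0.094).

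At 8 days off, 34 of 41 members were higher than at day 12 and 0 lower, where 28.7% of all genes rose and 27.2% fell, with median log2 changes of 0.56 and 0.02. All 6 stress genes, 8 of 9 enzymes, 16 of 20 synthetases and 4 of 6 transporters rose. Trib3, at 41 and 25.9 CPM, was above its day 0 level of 17.99 and 19.8 (log2 change against day 12 of 2.48, SE 0.27). Chac1 stood at 6.63 and 4.41 CPM (1.80, SE 0.25), Sesn2 at 102 and 86.0 CPM (1.29, SE 0.14), Asns at 116 and 106 CPM (1.61, SE 0.18) and Phgdh at 81.1 and 85.1 CPM (2.18, SE 0.16). Yars rose most among the synthetases, to 209 and 209 CPM (1.17, SE 0.12, edgeR adjusted p = 1.7e-06). Psat1, at 513 and 495 CPM, had a log2 change of 1.82 (SE 0.12), and Slc1a5, at 535 and 557 CPM, one of 0.96 (SE 0.12).

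At 12 days off, 34 of 41 members were higher than at day 12 and 1 was lower, where 32.9% of all genes rose and 32.4% fell, with median log2 changes of 0.57 over the members and 0.00178 over all genes. Synthetases rose in 17 of 20, stress genes in 6 of 6, enzymes in 8 of 9 and transporters in 3 of 6. Phgdh had the largest change, to 115 and 82.9 CPM (log2 change 2.43, SE 0.16, edgeR adjusted p = 1.2e-08), followed by Trib3 (2.06, SE 0.27), Psat1 at 581 and 555 CPM (1.99, SE 0.12), Asns at 140.2 and 104 CPM (1.75, SE 0.18) and Yars at 285 and 214 CPM (1.42, SE 0.12). Shmt1 rose by 1.30 (SE 0.12), Mthfd1l by 0.98 (SE 0.14), Sesn2 by 0.90 (SE 0.14) and Atf4 by 0.87 (SE 0.11) on the log2 scale. Sars and Kars, for serine and lysine, rose by 0.80 (SE 0.14) and 0.78 (SE 0.13). Slc7a11 fell again, to 10.9 and 17.8 CPM (log2 change -1.56, SE 0.21, edgeR adjusted p = 1.1e-05), while its heavy chain partner Slc3a2 rose to 378 and 297 CPM (0.79, SE 0.13). The A library of this group was higher than the B library in 31 of 41 members, by a median of 0.25 on the log2 scale, against 0.00295 over all genes.

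At 12 days off Dox, 16 of 41 members were higher than at day 0 and 4 lower, where 21.6% of all genes were higher and 22.0% lower, with median log2 differences of 0.26 and 0.00169. These counts rest on single libraries. Without replicate A of day 0 fewer members were higher, with median log2 differences of 0.14 over the members and 0.01 over all genes. Without replicate A of 12 days off more members were lower, with medians of 0.12 and -0.01. In both fits that share of the members was near the share of all genes. With the 4 libraries fitted alone 3 members were higher and 3 lower. In that fit 989 and 1171 were so among all the genes its own filter kept, fewer than 13652. The members' share of higher calls was then near that of all genes. Of the 20 synthetases 11 were higher and 1 lower. Fewer of them were higher without either day 0 library or replicate A of 12 days off, and 2 were with the 4 libraries alone.

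Farsb had the largest excess, at 113 and 91.3 CPM against 58.1 and 60.8 at day 0 (log2 difference 0.78, SE 0.14, edgeR adjusted p = 0.00055). Kars stood at 306 and 251 CPM against 174 and 167 (0.71, SE 0.13), and Mthfd1 at 96.1 and 97.7 CPM against 62.8 and 57.6 (0.69, SE 0.15). Farsb, Kars and Mthfd1 were the 3 that passed with the 4 libraries alone. Gars (0.59, SE 0.14), Wars (0.58, SE 0.14), Yars (0.58, SE 0.12), Eprs (0.55, SE 0.12), Slc7a5 (0.64, SE 0.17), Shmt1 (0.48, SE 0.12), Slc3a2 (0.42, SE 0.13) and Dars (0.38, SE 0.12) passed with all libraries and not with those 4 alone.

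The 4 genes still lower came from 3 roles. Slc7a11 stood at 10.9 and 17.8 CPM against 36.2 and 48.6 at day 0 (log2 difference -1.55, SE 0.21, edgeR adjusted p = 3.8e-05), Slc1a5 at 442 and 525 CPM against 843 and 860 (-0.82, SE 0.11) and Cars at 108 and 83.4 CPM against 158 and 159 (-0.73, SE 0.12). In these 3 genes both late libraries lay below both day 0 libraries. Psph stood at 55.6 and 43.8 CPM against 64.0 and 91.1 (-0.64, SE 0.15) and was not called without replicate B of day 0 (edgeR adjusted p = 0.053).

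Psat1, Asns and Atf4 did not pass the test between 12 days off and day 0. Psat1, at 581 and 555 CPM, differed from day 0 by -0.16 on the log2 scale (SE 0.11, edgeR adjusted p = 0.27), Asns by 0.30 (SE 0.18, edgeR adjusted p = 0.19) and Atf4, at 481 and 398 CPM, by 0.01 (SE 0.11, edgeR adjusted p = 0.97). These 3 values changed sign under alternatives, Asns was called higher without replicate B of either group, and Psat1 was called lower without replicate A of day 0 (log2 difference -0.33, edgeR adjusted p = 0.038). No stress gene was called in either direction.

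**Figure D5:**
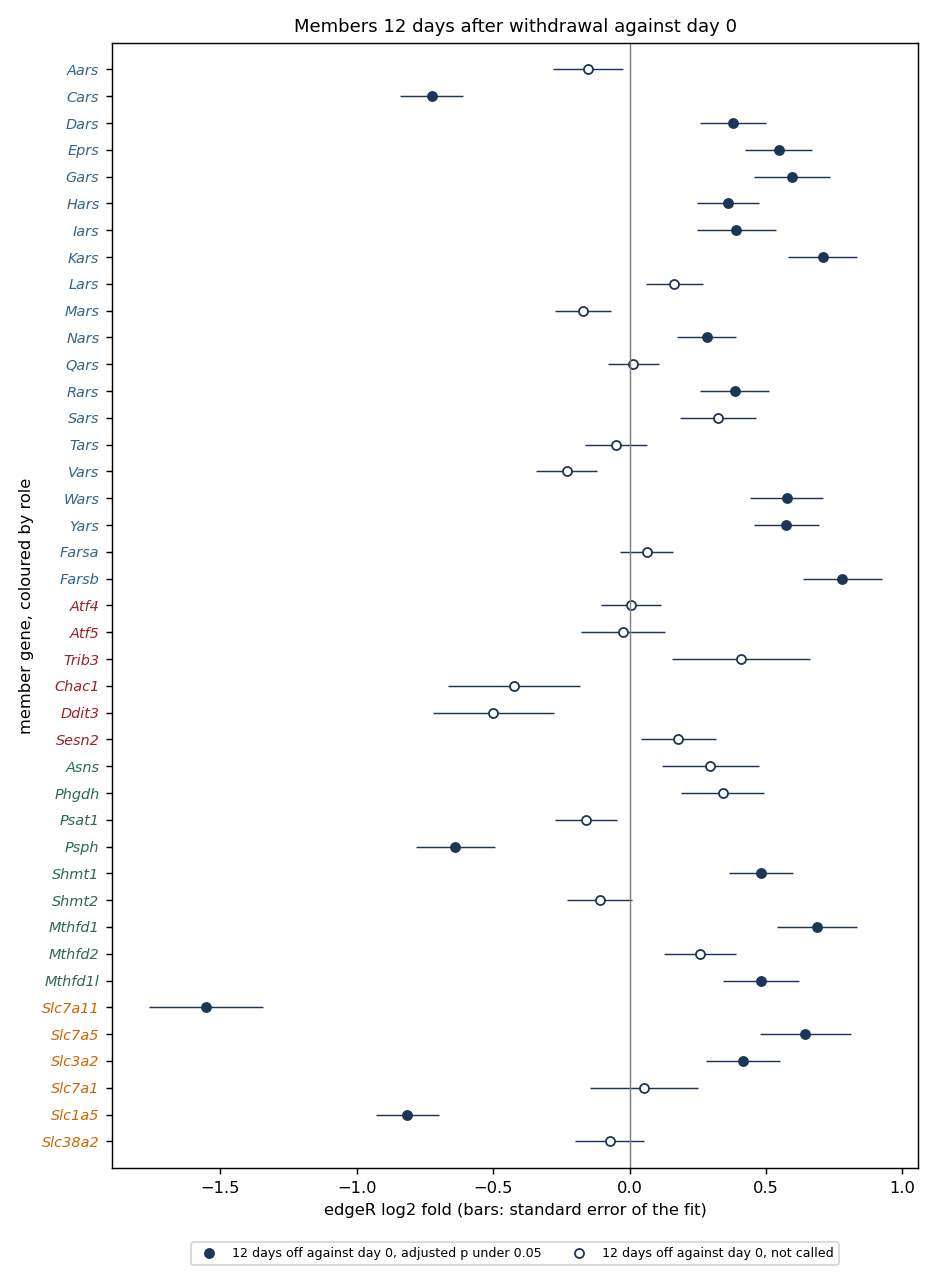
Log2 difference of each member between 12 days off Dox and day 0, with bars for the standard error of the edgeR fit and filled points where the adjusted p was under 0.05. The filled points on the right are 11 synthetases, 3 enzymes and 2 transporters, and Slc7a11, Slc1a5, Cars and Psph are filled on the left.

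Against day 0, 4 days off had 1 member higher and 14 lower, where 18.8% of all genes were higher and 19.1% lower. The higher one was Mthfd1l, at 186 and 153 CPM against 107 and 122 (log2 difference 0.56, SE 0.14), and it was not called without replicate A of either group. Chac1 (-1.39, SE 0.27), Psat1 (-1.30, SE 0.11), Asns (-1.02, SE 0.18) and Cars (-0.86, SE 0.12) were among the lower. Without replicate B of day 0 fewer members, and fewer of all genes, were lower. The median log2 differences were then -0.19 over the members and -0.03 over all genes. At 8 days off 14 members were higher and 4 lower than at day 0, where 16.2% of all genes were higher and 16.9% lower. Fewer members, and fewer of all genes, were higher without replicate A of day 0 or replicate A or B of 8 days off. In that order the members' median log2 difference was 0.06, 0.11 and 0.21, against 0.16 with all libraries. Slc7a5 (0.86, SE 0.17), Mthfd1 (0.68, SE 0.15) and Mthfd1l (0.67, SE 0.14) were higher, and Cars (-0.72, SE 0.12), Psph (-0.66, SE 0.14) and Slc1a5 (-0.64, SE 0.11) lower. Trib3 was higher as well (0.83, SE 0.25), but not without any one of replicate A or B of day 0 or replicate A of 8 days off. Comparisons that share the day 0 or the day 12 libraries are not independent of each other.

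The genes around the module were counted from lists of the same pathways, to be read against the share of all genes called: 30.0% higher and 33.4% lower at day 12 against day 0, 32.9% and 32.4% at 12 days off against day 12, and 21.6% and 22.0% at 12 days off against day 0. Of 17 mitochondrial synthetases 15 were lower at day 12 than at day 0 and 0 higher, with a median log2 change of -0.88, and the lowest adjusted p belonged to Mars2, for mitochondrial methionine (12.4 CPM against 47.5, log2 change -1.94, SE 0.14). From day 12 to 12 days off 14 of 17 rose, with Yars2 at 49.3 CPM against 16.7 (1.56, SE 0.13). Against day 0, 3 of 17 were then higher, near the 21.6% of all genes, and 6 lower, among the latter Cars2 (-0.84, SE 0.11). The 3 became 0 with the 4 libraries alone and 1 without replicate A of either group. All 4 genes of the multisynthetase scaffold and tRNA export (Aimp1, Aimp2, Eef1e1 and Xpot) fell by day 12 and rose by 12 days off. Aimp2, a scaffold of the complex, had a log2 change of -1.03 (SE 0.14) by day 12, and Eef1e1, which encodes the AIMP3 scaffold, one of 1.69 (SE 0.13) after withdrawal, ending above day 0 (0.82, SE 0.13).

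Upstream of ATF4, the 16 genes for eIF2 kinases, phosphatase subunits and eIF2B had 4 higher and 7 lower at day 12 than at day 0, shares near the 30.0% and 33.4% of all genes. Eif2ak1, the heme-regulated eIF2 kinase, stood at 124 CPM against 47.7 (log2 change 1.38, SE 0.12, edgeR adjusted p = 1.8e-07) and came down after withdrawal (-1.06, SE 0.12). Eif2b1, a subunit of the guanine nucleotide exchange factor for eIF2, was lower at day 12 (-0.81, SE 0.13), and Eif2b5, another subunit, was higher at 12 days off than at day 12 (0.98, SE 0.10). Eif2b3 stood at 49.7 CPM at 12 days off against 18.5 at day 0 (1.43, SE 0.15). Of the 16 genes 6 were higher and 3 lower at 12 days off than at day 12, against 32.9% and 32.4% of all genes. Compared with day 0, 5 were higher and 3 lower, against 21.6% and 22.0%, and 1 and 1 with the 4 libraries alone.

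Other targets of ATF4, 24 of 28 listed genes measured, were lower in 12 and higher in 6 at day 12 against day 0, and higher in 15 and lower in 7 at 12 days off against day 12. The 6 higher and the 7 lower are near the 30.0% and 32.4% of all genes, and the 12 and the 15 are above the 33.4% and 32.9%. Among the lower at day 12 were Slc6a9, the glycine transporter GLYT1 (14.9 CPM against 76.7, log2 change -2.36, SE 0.13), and Gpt2, the mitochondrial alanine aminotransferase (14.4 CPM against 63.1, -2.13, SE 0.16). Gpt2 then rose past its start to 91.1 CPM at 12 days off (2.66 against day 12, SE 0.16). Jdp2, a bZIP repressor, went the other way, at 71.4 CPM at day 12 against 27.4 (1.38, SE 0.11), and 19.6 at 12 days off (-1.86 against day 12, SE 0.12). Against day 0, 11 of the 24 were higher and 7 lower at 12 days off, where 21.6% and 22.0% of all genes were. With the 4 libraries alone 6 of 23 were higher and 2 lower. The arginine and lysine transporter gene Slc7a3 was lower than at day 0 (1.61 CPM against 15.2, -3.24, SE 0.19) and Pycr1, of proline synthesis, higher (17.4 CPM against 6.37, 1.46, SE 0.18).

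Of 13 further one-carbon and glycine enzymes measured among 16 listed, 7 were lower and 1 higher at day 12, and 8 were higher and 2 lower (1 without either day 12 library) at 12 days off against day 12. Gcsh, of the glycine cleavage system, was lower at day 12 than at day 0 (-0.85, SE 0.12). Gcsh (1.70, SE 0.12) and the spermidine synthase gene Srm (1.69, SE 0.14) were higher at 12 days off than at day 12, while Tyms, thymidylate synthase, was lower (-0.83, SE 0.09). Against day 0, 2 of the 13 were higher and 3 lower at 12 days off, near the 21.6% and 22.0% of all genes. Srm was higher than at day 0 (421 CPM against 149, 1.5, SE 0.14) and Tyms lower (54.5 CPM against 112, -1.04, SE 0.10). Of 16 measured genes of GATOR and amino acid sensing, 4 were higher and 7 lower at day 12 than at day 0, near the 30.0% and 33.4% of all genes, with the folliculin gene Flcn at -1.49 (SE 0.11) and Depdc5, a GATOR1 subunit, at 1.0 (SE 0.13), and 10 were higher and 4 lower at 12 days off than at day 12, the 10 becoming 4 with the 4 libraries alone.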

How the data were processed

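RNA from 16 libraries of AML246 cells was sequenced on a NextSeq500, per the labels' protocols. The authors deposited whole-number counts per gene, with the Entrez identifier and gene length per the file headers. featureCounts, edgeR, limma and the mm10 build are named per the submitters' processing notes. The aligner and the strand setting are not given in the sources used here. Each file held the same 13652 genes, all above 0.5 CPM in at least 3 libraries, and 13216 were given a symbol.

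Counts were fitted with edgeR 4.0.16 in R 4.3.3 (TMM, filterByExpr, robust quasi-likelihood F test, 1 mean for each of the 8 groups over all 16 libraries, 8 residual degrees of freedom, common biological coefficient of variation 10.9%). Tests were two-sided, with Benjamini-Hochberg adjusted p over all 13652 genes and a threshold of 0.05, in 11 comparisons. A standard error is the log2 change divided by the square root of F. "Called" means past that threshold. On simulated counts for day 12 against day 0 over 13652 genes, with a variation of 10.9% for every gene, the fit recovered 100% of 4-fold changes. Of its 159 calls 4 were false. Far more genes were called in the data, so these rates may not hold there. No label says that the letters A and B pair libraries, so the main fit used no block. The letters' differences correlated above 0.1 in 9 of 28 pairs of groups (-0.142 to 0.430). Pairing is therefore not excluded, and a fit with a block is among the alternatives.

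The alternatives were DESeq2 size factors (RLE), library size alone, no filter, a mean of at least 1 CPM, DESeq2 1.42.0, limma-voom (limma 3.58.1), the 4 libraries of a comparison alone, a fit with a replicate block, and fits without each library in turn. The members and all lists were chosen with earlier results of these data known. All members could be named; of each pathway list, up to 3 genes per main comparison, those called with the lowest adjusted p, could be. One enzyme gene of the pathway lists is not reported here by name.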

Additional observations from a re-analysis of the deposited data

How the results depend on the processing

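Of 151 named log2 changes recomputed under the alternatives (1812 values), 1757 kept direction and side of the threshold, 42 lost the call, 8 gained it and 5 changed sign; the cause was not tested. Without 1 library at a time, members higher ranged from 7 to 21 for 12 days off against day 0, 14 to 24 for day 12 against day 4, 8 to 11 for 4 days off against day 12, 0 to 1 for 4 days off against day 0 and 5 to 11 for 8 days off against day 0. Members lower ranged from 3 to 10, 0 to 1, 0 to 2, 9 to 13 and 2 to 4 in the same order, from 1 to 2 for 12 days off against day 12, and from 22 to 34 for day 8 against day 0. Fewer samples were fitted in each of these, and a group of 1 library was assumed to vary like the others. The calls over all genes also changed in these fits, so the counts of members are not to be read alone. With the 4 libraries alone, members higher were 2 at day 12 and 3 at 12 days off, each against day 0; members lower were 2 in the Cd11b-high sort, 3 for day 12 against day 4, 3 for 4 days off and 2 for 8 days off, each against day 12. With library size alone, 3 members were lower at day 12 than at day 4, and Atf4 at 12 days off was -0.027 against day 0 on the log2 scale. Without 1 library that difference ranged from -0.14 to 0.22 for Atf4, from -0.33 to 0.029 for Psat1 and from -0.0071 to 0.67 for Asns. Library size alone moved the median of all genes from -0.07 to -0.20 at day 12 against day 0, and that of the members from -0.38 to -0.51. It changed the split of all calls, higher and lower, from 2006 and 1681 to 1272 and 2797 for day 12 against day 4, from 2459 and 2570 to 3480 and 1906 for 4 days off, and from 3916 and 3712 to 4929 and 2916 for 8 days off. With the replicate block, 1 member was lower at 8 days off than at day 12 (Slc7a11), where 0 were without it. Chac1, on 12 counts in its lowest library, is the member whose precision depth limits most.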

Other observations

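The day 0 replicates were not alike across the module. Psph stood at 64.0 CPM in replicate A and 91.1 in B, Asns at 76.8 and 123, Psat1 at 557 and 713 and Dars at 393 and 516, while Cars stood at 158 and 159 and Yars at 169 and 166. The B library was the higher in 30 of 41 members. The median log2 difference of A from B was -0.10 over the members and 0.02 over all genes. The members leaned further the same way at day 4 (-0.19, A higher in 9) and day 8 (-0.14, A higher in 3). They leaned the other way at 12 days off (0.25).

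In the 12 days off group the genes far apart between replicates went in both directions. Sars stood at 262 CPM in A and 184 in B, Ddit3 at 43.8 and 26.2 and Atf5 at 86.8 and 57.6, while Slc7a1 stood at 118 and 191 and Slc38a2 at 232 and 311.

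The 2 genes of phenylalanyl-tRNA synthetase, whose products form 1 enzyme, stood at different CPM relative to each other along the course, with no test of the difference. Farsa to Farsb was 224 to 58.1 CPM and 194 to 60.8 CPM at day 0, 149 to 60.5 and 148 to 58.6 at day 12, and 228 to 113 and 208 to 91.3 at 12 days off.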
